A study of Mus musculus with 12 samples.

Results

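The genes described here build the contractile apparatus of striated muscle and the calcium system that switches it on. They are 38 of the 52636 gene identifiers counted in paw joints, chosen by symbol from a fixed list of thin filament, thick filament, M-band, Z-disc, calcium handling and energy supply genes, with the myosins left out. All 38 were found and all 38 passed the filter on low counts. The study compared 3 groups of 4 mice, each library being made from the total paw tissue of 1 animal. Naive mice received anti-gp120, an antibody used as the negative control, and no arthritogenic serum. The other 8 mice received serum of K/BxN mice, whose autoantibodies cause joint inflammation, and their joints were taken 7 days after the transfer. Of these, 4 received anti-gp120 (control 1 to 4) and 4 received 6F2, an agonistic antibody to SIRPa (anti-SIRPa 1 to 4). SIRPa, found on macrophages and other myeloid cells, sends inhibitory signals when it meets CD47 on a neighbouring cell. The labels give no strain, age or sex, and the replicate numbers are taken here only as names of the animals.

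In a sarcomere, the thin filament of actin is anchored in the Z-disc by alpha-actinin, and the giant protein titin spans from the Z-disc to the M-band. Calcium released from the sarcoplasmic reticulum through the ryanodine receptor binds troponin C, which moves tropomyosin off the myosin-binding sites of actin, and calcium pumps of the SERCA family then take it back up. Many of these proteins exist in a form typical of slow, fatigue-resistant fibres and another typical of fast fibres. A paw holds small skeletal muscles beside joint, bone, skin and tendon.

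The libraries held muscle RNA in every group. The label names the tissue only as joint, but the adult fast myosins Myh1 and Myh2 stood at between 6440 and 39426 CPM in all 12 libraries (CPM, the counts relative to the TMM-scaled library size), and the slow myosin Myh7 at between 2179 and 6136 CPM. Of 9 heart markers, 5 did not pass the filter: over all 12 libraries together, the atrial light chain Myl7 had 1 count, the natriuretic peptide genes Nppa and Nppb had 4 and 7 counts, the cardiac factor Nkx2-5 had 8 and the cardiac myosin-binding protein gene Mybpc3 had 46. The other 4, Tnnt2, Myh6, Myl4 and Tnni3, passed it, and the 9 together summed to 49.9 to 105 CPM per library. The 38 genes together took 24.99 ± 3.68% of all counts in naive mice (SD, n = 4, range 21.2 to 29.95%), 19.9 ± 4.55% in the control group (15.4 to 25.5%) and 23.2 ± 4.60% in the anti-SIRPa group (16.3 to 25.9%), and the 3 groups overlapped. Titin (Ttn) alone took 12.9 ± 2.73%, 10.9 ± 1.87% and 11.4 ± 3.34% (SD, n = 4).

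**Figure D1:**
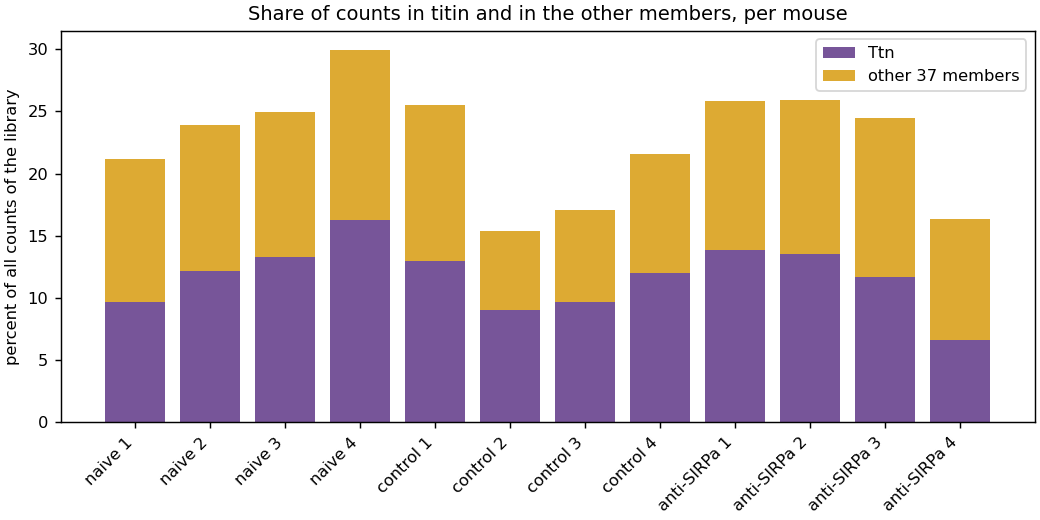
Percent of all counts of each library that fell on Ttn and on the other 37 genes, 1 bar per mouse. Naive 4 is highest at 29.95%, control 2 lowest at 15.4%, and anti-SIRPa 4, at 16.3%, stands below the other anti-SIRPa mice at 24.5 to 25.9%.

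Several libraries stood apart. Control 1 held the highest control value for 36 of the 38 genes and control 2 the lowest for 30. The median over the 38 genes of the log2 difference from the naive mean was 0.02 in control 1, but −1.19 in control 2, −1.02 in control 3 and −0.55 in control 4. In anti-SIRPa 4 this median was −0.53, with 36 genes below the whole naive range, against −0.04, −0.02 and 0.05 in anti-SIRPa 1, 2 and 3. Total counts ran from 6893969 in control 2 to 17597920 in anti-SIRPa 1. A noncoding gene, Gm26917, took 2.89, 8.28, 6.82 and 4.55% of counts in controls 1 to 4 and 1.63 to 2.52% in the other 8 libraries. Among the controls its order was the reverse of that of the medians just given. What lies behind this was not tested. Olfactory, vomeronasal and taste receptor genes together stood at 583 and 234 CPM in controls 2 and 4 and at 10.6 to 31.5 CPM elsewhere. The summed level of 7 epidermis markers ran from 7.53 to 17023 CPM and was lowest in naive 4 and anti-SIRPa 2.

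Per length of exon, the naive levels of the 38 genes spanned more than 3 orders of magnitude. The skeletal alpha-actin Acta1, at 9423 CPM per kb of exon, was the highest, followed by the fast troponin C gene Tnnc2 (7749.6 CPM per kb), the fast troponin T gene Tnnt3 (3945 CPM per kb) and the fast calcium pump gene Atp2a1 (3793 CPM per kb). The lowest were sarcolipin (Sln), a small inhibitor of the pump, at 3.16 CPM per kb, the cardiac actin Actc1 at 6.08 CPM per kb and the slow calsequestrin gene Casq2 at 8.51 CPM per kb. Acta1 and Actc1 are close paralogs, so part of the Actc1 count may be reads of the far more abundant Acta1.

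The first comparison asks how serum arthritis under the control antibody changed the joints. Of the 38 genes, 10 fell and 0 rose (edgeR quasi-likelihood test, Benjamini-Hochberg adjusted p below 0.05 over all 16674 genes tested). Among all tested genes 4.45% were called lower and 5.87% higher. At an unadjusted p under 0.05, 19 were lower (12.2% of all tested genes) and 1 higher (16.1%), and DESeq2, run as another test, called 16 lower (8.21% of all tested genes) and 1 higher (9.21%). The median log2 fold change was −0.52 over the 38 genes and 0.03 over all tested genes, and 35 of the 38 lay below 0. The 10 were Actn2, Myoz2, Tnnc1, Tnni1, Myot, Tpm3, Cryab, Ldb3, Casq2 and Atp2a2. In bulk tissue, fewer muscle cells and less of these RNAs per cell cannot be told apart.

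The Z-disc group held the most calls, 5 of 8 genes, with a group median of −1.23. Actn2, which encodes the alpha-actinin of the Z-disc found in all fibre types, stood at 2311, 2343, 2505 and 3394 CPM in the 4 naive mice. It stood at 1185, 428, 448 and 652 CPM in controls 1 to 4. The groups did not overlap, and even control 1, the highest control, was below the lowest naive mouse. The fall of 1.96 ± 0.33 on the log2 scale (SE; 3.89-fold; edgeR adjusted p = 0.00746) was the largest among the 38 genes.

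Myoz2, the calsarcin of slow fibres, tethers the phosphatase calcineurin to alpha-actinin. It stood at 141, 144, 135 and 203 CPM in naive mice and at 87.7, 32.4, 36.6 and 56.0 CPM in controls. Every control mouse was below every naive mouse, and the log2 change was −1.55 ± 0.27 (SE; edgeR adjusted p = 0.00964). Myotilin (Myot), an actin cross-linker of the Z-disc, stood at 951, 837, 827 and 1123 CPM in naive mice and at 732, 193, 227 and 363 CPM in controls. Its groups did not overlap, although control 1 stood far closer to the naive mice than the other controls did, and the change was −1.30 ± 0.35 (SE; edgeR adjusted p = 0.0349). That call was lost on leaving out any 1 of 8 of the libraries (naive 1 to 4, control 2 to 4 or anti-SIRPa 1).

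Ldb3, the PDZ-LIM protein also called ZASP or cypher, stood at 956, 1018, 1129 and 1409 CPM in naive mice and at 803, 307, 357 and 462 CPM in controls. The change was −1.23 ± 0.28 (SE; edgeR adjusted p = 0.0185), with no overlap, and the call was lost without naive 4 or control 2, 3 or 4. Cryab, the small heat shock protein that guards desmin and titin, stood at 579.9, 597, 784 and 808 CPM in naive mice and at 355, 210.4, 256 and 355 CPM in controls. Its change was −1.23 ± 0.23 (SE; edgeR adjusted p = 0.0103), again with no overlap. Hspb2, a gene on the opposite strand that overlaps Cryab, had 6.74% as many counts and a change of −0.73 ± 0.20 (SE; edgeR adjusted p = 0.0340). The remaining Z-disc and filament-linking genes were not called. They were the fast alpha-actinin Actn3 (−0.19), the fast calsarcin Myoz1 (−0.50) and the intermediate filament gene desmin (Des, −0.10).

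**Figure D2:**
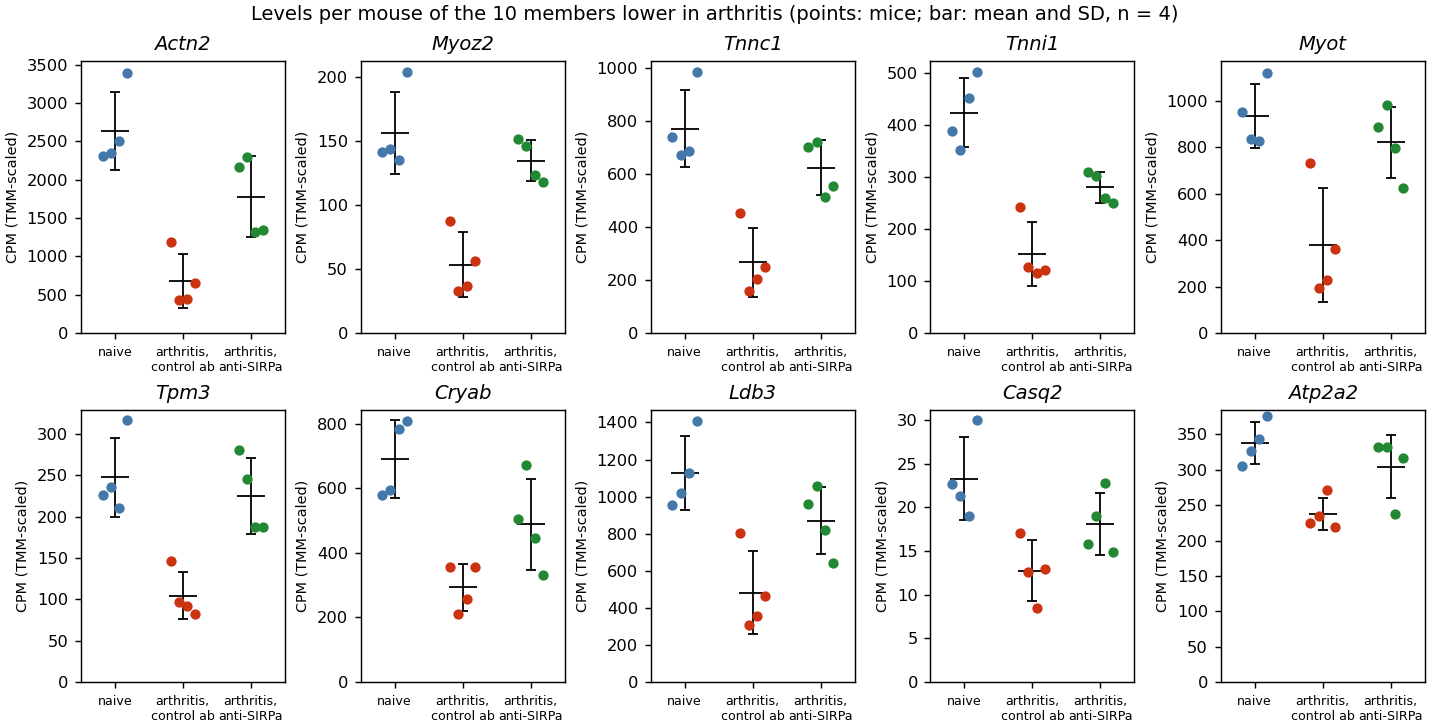
CPM of the 10 genes that fell in arthritis, 1 panel per gene with a linear axis from 0. Points are mice, bars are group means with SD (n = 4 per group). All control mice lie below all naive mice in each panel. For Actn2, for example, the control mice sit between 428 and 1185 CPM and the naive mice between 2311 and 3394 CPM.

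Of 12 thin filament genes, 3 fell, with a group median of −0.65. Tnnc1, the calcium sensor troponin C of slow and cardiac muscle, stood at 740.0, 669.5, 687 and 983 CPM in naive mice and at 454, 159, 202 and 249.7 CPM in controls. The groups did not overlap and the change was −1.53 ± 0.28 (SE; edgeR adjusted p = 0.00999). Nisch, which overlaps Tnnc1 on the opposite strand and had 34.1% as many counts, was not called and changed by 0.22 ± 0.13 (SE; edgeR adjusted p = 0.270). Tnni1, the inhibitory troponin I of slow fibres, stood at 389, 353, 453 and 503 CPM in naive mice and at 243, 127, 115 and 121 CPM in controls. Its change of −1.49 ± 0.22 (SE) had the smallest p of the 38 genes (edgeR adjusted p = 0.00535). Tpm3, the slow-fibre tropomyosin, which is also made outside muscle and has processed copies in the genome, stood at 226, 236, 210.0 and 317 CPM in naive mice and at 147, 96.3, 92.2 and 82.5 CPM in controls. The change was −1.24 ± 0.20 (SE; edgeR adjusted p = 0.00717), without overlap. Of the thin filament genes that edgeR did not call, DESeq2 called 3 lower, Acta1, Tpm1 and Tnnt1. Acta1 had a change of −0.73 ± 0.26 (SE; edgeR adjusted p = 0.0891). It stood at 14474 ± 2279.8 CPM in naive mice and 8727 ± 3239.9 CPM in controls (SD, n = 4). The giant ruler protein nebulin (Neb) had −0.69 ± 0.32. The tropomyosins Tpm1 and Tpm2 had −0.85 and −0.38, the slow troponin T Tnnt1 had −0.52, and the fast troponin genes Tnnt3, Tnnc2 and Tnni2 had −0.60, −0.51 and −0.48.

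Of the 5 genes of titin, the thick filament and the M-band, 0 were called in the edgeR test, and 2 had an unadjusted p under 0.05, Mybpc2 and the myomesin Myom2. DESeq2 called these 2 as well, in the same directions. Ttn stood at 138378 ± 41831 CPM in naive mice and 106387 ± 25240.0 CPM in controls (SD, n = 4), a log2 change of −0.38 ± 0.34 (SE; edgeR adjusted p = 0.498). Its groups overlapped widely. Mybpc2, the fast isoform of myosin-binding protein C, was the exception to the direction of the other genes. It stood at 198, 230.0, 267 and 236 CPM in naive mice and at 489, 427, 325 and 569 CPM in controls. All 4 controls were above all 4 naive mice, but the change of 0.96 ± 0.29 (SE) did not pass the threshold (edgeR adjusted p = 0.0522). The slow form, Mybpc1, had −0.48.

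Of 6 genes of calcium release and storage, 1 fell. Casq2, the calsequestrin of slow and cardiac muscle that buffers calcium inside the sarcoplasmic reticulum, stood at 22.7, 21.3, 19.1 and 30.04 CPM in naive mice and at 17.0, 12.6, 8.46 and 12.9 CPM in controls. Its change was −0.87 ± 0.21 (SE; edgeR adjusted p = 0.0257). The call was lost without any 1 of naive 1, 2 or 4 or control 2, 3 or 4. The fast calsequestrin Casq1 had nearly the same change, −0.85 ± 0.27 (SE), but was called by DESeq2 only (edgeR adjusted p = 0.0571). The release channel Ryr1 and its voltage sensor Cacna1s had 0.11 ± 0.25 and −0.09 ± 0.26 (SE), with groups that overlapped. Triadin (Trdn), which links calsequestrin to the channel, had −0.76 ± 0.33, and junctophilin 1 (Jph1), which holds the membranes of the triad together, had −0.51 ± 0.29 (SE).

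Of 4 genes of calcium uptake and buffering, 1 fell. Atp2a2, which encodes SERCA2, the calcium pump of slow fibres and, in another splice form, of most other cells, stood at 306, 327, 344 and 376 CPM in naive mice and at 225, 235, 271 and 219.6 CPM in controls. The change was −0.51 ± 0.14 (SE; 1.42-fold; edgeR adjusted p = 0.0326), the smallest among the 10. The call was lost without any 1 naive mouse or without control 2, 3 or 4. The fast pump gene Atp2a1 had −0.18 and the calcium buffer parvalbumin (Pvalb) had −0.37, neither called. Sln was not called at 0.74 ± 0.39 (SE), from 4.17 ± 1.28 CPM in naive mice to 6.94 ± 3.13 CPM in controls (SD, n = 4).

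Of the 3 genes of oxygen and energy supply, 0 were called in the edgeR test, and 1, myoglobin (Mb), had an unadjusted p under 0.05 and was called by DESeq2. Mb, which stores oxygen in oxidative fibres, stood at 4217, 4139, 4201 and 5704 CPM in naive mice and at 4071, 793, 1258 and 1898 CPM in controls. Control 1 was just under the lowest naive mouse and the other 3 controls were far lower, and the change of −1.19 ± 0.38 (SE) was not called (edgeR adjusted p = 0.0640). Muscle creatine kinase (Ckm) and muscle glycogen phosphorylase (Pygm) had −0.32 and −0.58.

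Beside the 10 called genes, Mb was the eleventh gene lower without overlap, and Mybpc2 the single gene higher without overlap. Over all tested genes 6.47% were lower and 6.02% higher without overlap. Leaving out control 1 raised the count of lower genes from 10 to 29, beside 12.7% of all genes tested in that fit called lower and 14.5% higher, and leaving out naive 4, control 2, control 3 or control 4 reduced it to 6. The calls of Tnni1, Tpm3, Myoz2, Cryab, Actn2 and Tnnc1 held in all 12 fits that left out 1 library. Over all genes tested, edgeR called 248 lower without naive 4, 296 without control 2, 205 without control 3 and 279 without control 4. Without controls 2 and 4 together, which left 2 control mice, it called 0 of the 38 genes and 1 of all 17336 genes tested.

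Markers of other cell types of the paw also changed in this comparison, in which 5.87% of all tested genes were called higher. Of 6 fibroblast markers 4 rose, the collagen genes Col1a1, Col1a2 and Col3a1 and Lum. Dcn (−0.28) and Pdgfra (0.03) were not called. The 6 summed to 5215 to 9733 CPM in naive mice and 7315 to 40728 CPM in controls. Col1a1 alone averaged 2741 CPM in naive mice and 11693 CPM in controls. Of 8 myeloid markers 4 rose, with sums of 333 to 372 CPM and 361 to 712 CPM. Of 6 smooth muscle markers 0 were called by edgeR or by DESeq2 and 0 had an unadjusted p under 0.05, with sums of 514 to 600 CPM in naive mice and 525 to 588 CPM in controls. Of 5 bone markers 2 rose, Ibsp and Col1a1, of which Col1a1 is also in the fibroblast list. Dmp1 (−0.13), Sost (−0.27) and Bglap (−0.43) were not called, and the median of the bone list was −0.13. Of 4 cartilage markers that were tested 1 rose (Acan) and 1 fell (Col9a1). None of these markers was at 0 in all 12 libraries. The part of these cell types in the changes of the muscle genes was not tested.

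**Figure D3:**
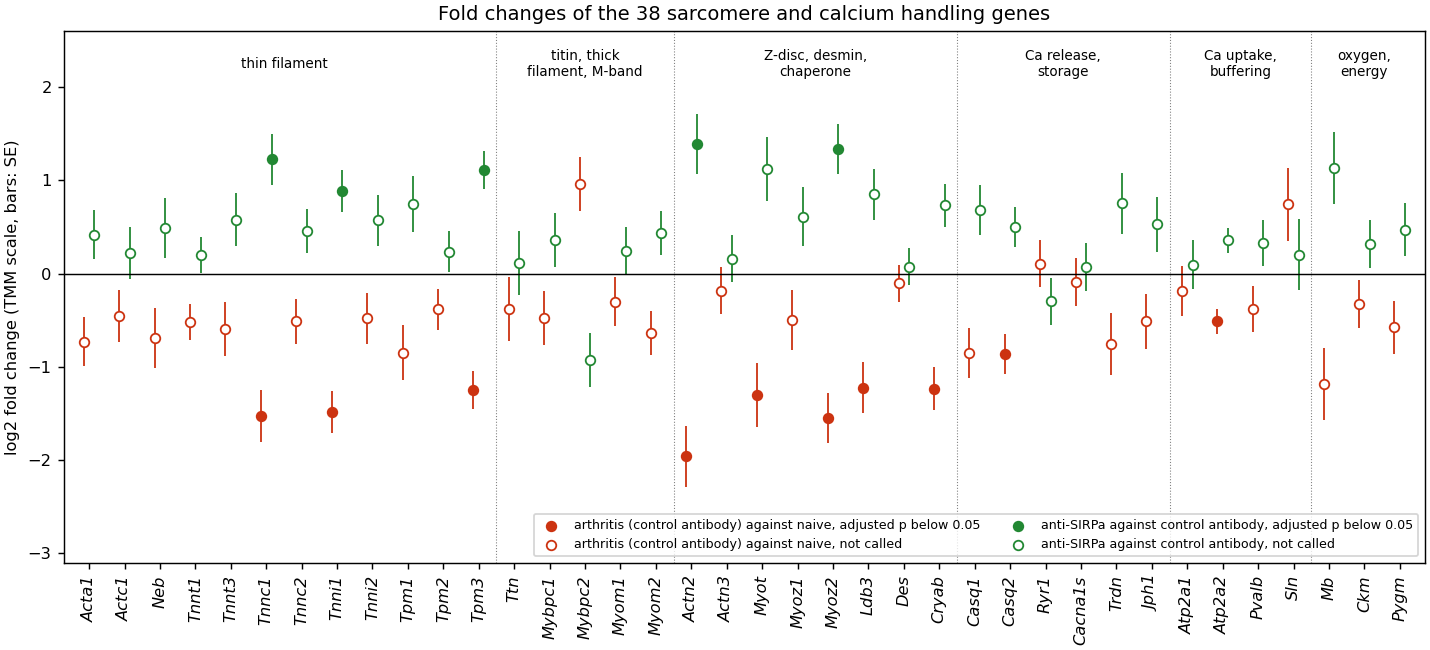
Log2 fold changes (points) with SE (bars) of the 38 genes grouped by role, for arthritis against naive (red) and anti-SIRPa against control antibody (green). Filled points passed an adjusted p of 0.05. The filled red points lie between −1.96 (Actn2) and −0.51 (Atp2a2), and the filled green points between 0.89 (Tnni1) and 1.39 (Actn2). Both comparisons share the control mice.

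Slow-fibre forms made up most of the genes that fell. Of 7 genes typical of slow fibres (Tnnt1, Tnnc1, Tnni1, Tpm3, Myoz2, Casq2 and Atp2a2), 6 fell, with a median of −1.24 and a range of −1.55 to −0.51. Of 9 typical of fast fibres (Tnnt3, Tnnc2, Tnni2, Actn3, Mybpc2, Myoz1, Casq1, Atp2a1 and Pvalb), edgeR called 0, with a median of −0.48 and a range of −0.85 to 0.96. At an unadjusted p under 0.05, 2 of these were lower and 1 higher, together near the 28.2% of all tested genes with such a p, and DESeq2 called 1 lower and 1 higher. Mybpc1, the slow form of myosin-binding protein C, was not in the slow list and had −0.48, not called. Among the myosin genes, outside both lists, the slow Myh7 had −0.81 and the fast Myh1 and Myh2 had −0.56 and −0.95. Myh4 had −0.92, and the light chain genes Myl2, Myl3, Myl1 and Mylpf had −2.48, −1.24, −1.51 and −1.31. Of these, edgeR called Myh7, Myh2, Myl2, Myl3 and Myl1 lower. The difference between the slow and fast lists was not tested.

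Ratios of a slow to a fast isoform within 1 library do not depend on the scaling between libraries, and they are given as a description. The log2 ratio of Tnnc1 to Tnnc2 was −2.89, −3.04, −3.22 and −2.91 in naive mice and −3.80, −4.26, −4.08 and −4.20 in controls. The log2 ratio of Tnni1 to Tnni2 was −2.88, −3.07, −2.73 and −3.01 in naive mice and −3.93, −3.38, −3.94 and −4.34 in controls. That of Myoz2 to Myoz1 was −1.06, −1.18, −1.12 and −1.02 in naive mice and −2.27, −2.08, −1.94 and −2.05 in controls. In these 3 pairs all 4 controls, control 1 included, lay below all 4 naive mice, by 1.07, 0.97 and 0.99 between the group means. The other 3 pairs overlapped. The means in naive mice and controls were −2.22 and −2.07 for Tnnt1 to Tnnt3, −5.75 and −5.66 for Casq2 to Casq1, and −5.27 and −5.55 for Atp2a2 to Atp2a1.

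**Figure D4:**
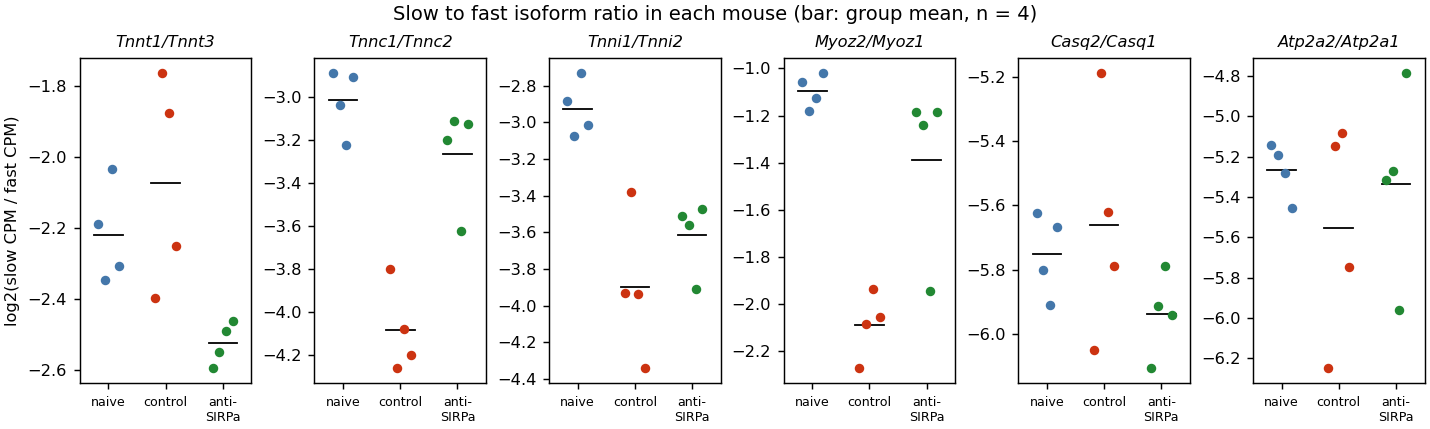
Log2 ratio of the slow to the fast isoform's CPM in each mouse, 1 panel per pair with its own linear axis, lines at the group means (n = 4 per group). In Tnnc1/Tnnc2, Tnni1/Tnni2 and Myoz2/Myoz1 the control mice lie below the naive mice without overlap, with means of −4.08, −3.90 and −2.09 against −3.01, −2.92 and −1.10.

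Since several of these genes moved together, their promoters are shown as far as the RefSeq table for GRCm38.p6 held them, which was the case for 26 of the 38. In the 250 bases before the start, 4 motifs known from muscle genes were searched on both strands: CAGCTG, an E-box of the kind bound by MyoD family factors, the MEF2 consensus, the CArG box of serum response factor, and CATTCC, the motif of TEAD factors. All but CATTCC read the same on both strands, and matches of different motifs may overlap. CAGCTG occurred in 13 of the 26 genes (50%) and in 14.7% of 27025 genes in the table. The MEF2 consensus occurred in 4 of the 26 (15.4%), namely Casq2, Myoz2, Pvalb and Ttn, and in 3.42% of all genes. The CArG box occurred in 4 of the 26 (15.4%), namely Acta1, Actc1, Ldb3 and Myom1, and in 1.62% of all genes. CATTCC occurred in 5 of the 26 (19.2%), near the 14.4% of all genes. Of the called genes, 7 were in the table, and 3 of them held CAGCTG. Actn2, the gene with the largest fall, held none of the 4 motifs, Tnnc1 held only CATTCC and Ldb3 only the CArG box. No motif was found in all 7. The 250 bases before the start are printed for 3 genes that fell (Myoz2, Tnni1 and Casq2) and for Pvalb, which was not called. CAGCTG and MEF2 matches are in capitals. Each printed gene holds such a match, so the 4 do not stand for the called genes as a whole. Myoz2 has a MEF2 match that begins at position −33 and CAGCTG at −12, Casq2 a MEF2 match at −69 and Pvalb one at −180. Another listed start of Pvalb had no match to these motifs. Tnni1 has CAGCTG at −68 from the start used for the printed bases and at −158 from another listed start. The printed Tnni1 bases lie inside the gene span given below. Those of Myoz2 overlap its span in part, and its CAGCTG match lies inside that span. A match describes the letters and shows no binding.
Myoz2, chr3:123034988-123035237, minus strand: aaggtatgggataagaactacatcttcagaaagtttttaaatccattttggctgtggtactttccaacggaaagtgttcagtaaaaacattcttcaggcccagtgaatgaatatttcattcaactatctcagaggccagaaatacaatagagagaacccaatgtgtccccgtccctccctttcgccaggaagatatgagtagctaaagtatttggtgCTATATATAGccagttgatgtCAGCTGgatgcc
Tnni1, chr1:135799171-135799420, plus strand: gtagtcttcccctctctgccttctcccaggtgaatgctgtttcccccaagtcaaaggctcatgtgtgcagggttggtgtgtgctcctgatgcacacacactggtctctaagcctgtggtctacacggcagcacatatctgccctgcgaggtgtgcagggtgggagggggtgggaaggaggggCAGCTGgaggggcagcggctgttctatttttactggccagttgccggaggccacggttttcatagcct
Casq2, chr3:102086165-102086414, plus strand: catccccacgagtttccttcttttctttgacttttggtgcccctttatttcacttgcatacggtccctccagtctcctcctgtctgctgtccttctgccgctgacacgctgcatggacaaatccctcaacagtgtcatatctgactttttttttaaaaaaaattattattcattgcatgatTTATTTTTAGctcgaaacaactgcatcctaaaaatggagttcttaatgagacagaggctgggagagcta
Pvalb, chr15:78206401-78206650, minus strand: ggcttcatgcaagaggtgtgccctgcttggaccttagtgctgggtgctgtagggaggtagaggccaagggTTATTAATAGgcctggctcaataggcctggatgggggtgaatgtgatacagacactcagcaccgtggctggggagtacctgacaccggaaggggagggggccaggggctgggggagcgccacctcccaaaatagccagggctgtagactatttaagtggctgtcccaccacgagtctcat

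On GRCm38, in the GENCODE M21 annotation, Actn2 (ENSMUSG00000052374) lies on chromosome 13 from 12269426 to 12340760 on the minus strand. Tnni1 (ENSMUSG00000026418) lies on chromosome 1 from 135779434 to 135810989 on the plus strand, and Tnnc1 (ENSMUSG00000091898) on chromosome 14 from 31208312 to 31211729 on the plus strand. On chromosome 3 lie Tpm3 (ENSMUSG00000027940) from 90072649 to 90100902 on the plus strand and Myoz2 (ENSMUSG00000028116) from 123006206 to 123035015 on the minus strand. Casq2 (ENSMUSG00000027861) lies on the same chromosome from 102086415 to 102146514 on the plus strand. All 38 genes are annotated as protein-coding.

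Genes that work beside the 38 were taken from 3 further lists. Of 14 other genes of the triad and of calcium handling, 3 fell (median −0.47), led by the calcium entry channel Orai1 (−0.67 ± 0.15, SE), junctophilin 2 (Jph2, −0.76 ± 0.19) and the calcium sensor Stim1 (−0.74 ± 0.21). Of 20 genes of sarcomere assembly and maintenance, 7 fell (median −0.75). The actin-binding repeat protein gene Xirp1 had the smallest p (−2.04 ± 0.28, SE; edgeR adjusted p = 0.00500), followed by Synpo2l (−1.11 ± 0.25), the methyltransferase gene Smyd1 (−0.92 ± 0.24) and the M-band gene Myom3 (−0.94 ± 0.25). Of 9 genes of phosphagen and glycogen metabolism, 4 fell (median −0.77). They were the mitochondrial creatine kinase gene Ckmt2 (−1.94 ± 0.37), glycogen synthase 1 (Gys1, −1.09 ± 0.24), the muscle enolase Eno3 (−1.50 ± 0.37) and the phosphoglycerate mutase Pgam2 (−0.94 ± 0.24). The 14 of 43 called in these lists became 33 without control 1 and 2 without naive 4, control 2, control 3 or control 4.

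A second scale sets the 38 genes against another part of the muscle RNA. For this, libraries were scaled to their summed counts of 9 genes, 8 myosin heavy and light chains and the myosin kinase gene Mylk2. In naive mice the 9 summed to 53021 to 76900 CPM, of which the fast myosins Myh1 and Myh2 averaged 30594 and 16921 CPM. The scale therefore follows mainly fast myosin heavy chains, also where slow and fast lists are given on it. It moved the median of all tested genes in arthritis against naive from 0.03 to 0.95. On this scale 7 of the 38 genes fell and 12 rose, with a median of 0.21, while 0.39% of all tested genes were called lower and 51.7% higher. Lower were Actn2 (−1.21 ± 0.17, SE), Myoz2 (−0.79), Tnnc1 (−0.78), Tnni1 (−0.67), Myot (−0.63), Mb (−0.55) and Ldb3 (−0.46). Higher were Mybpc2 (1.84 ± 0.31, SE), Sln (1.505), Ryr1 (1.00), Des (0.77), Cacna1s (0.72), Actn3 (0.66), Atp2a1 (0.63), Ttn (0.50), Myom1 (0.50), Ckm (0.46), Tpm2 (0.45) and Pvalb (0.43). Cryab, Tpm3, Casq2 and Atp2a2, called lower on the TMM scale, were not called on this one, and Casq2 and Atp2a2 changed sign (0.0048 and 0.46). The slow list had a median of −0.36 with 3 of 7 lower, and the fast list a median of 0.29 with 4 of 9 higher.

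**Figure D5:**
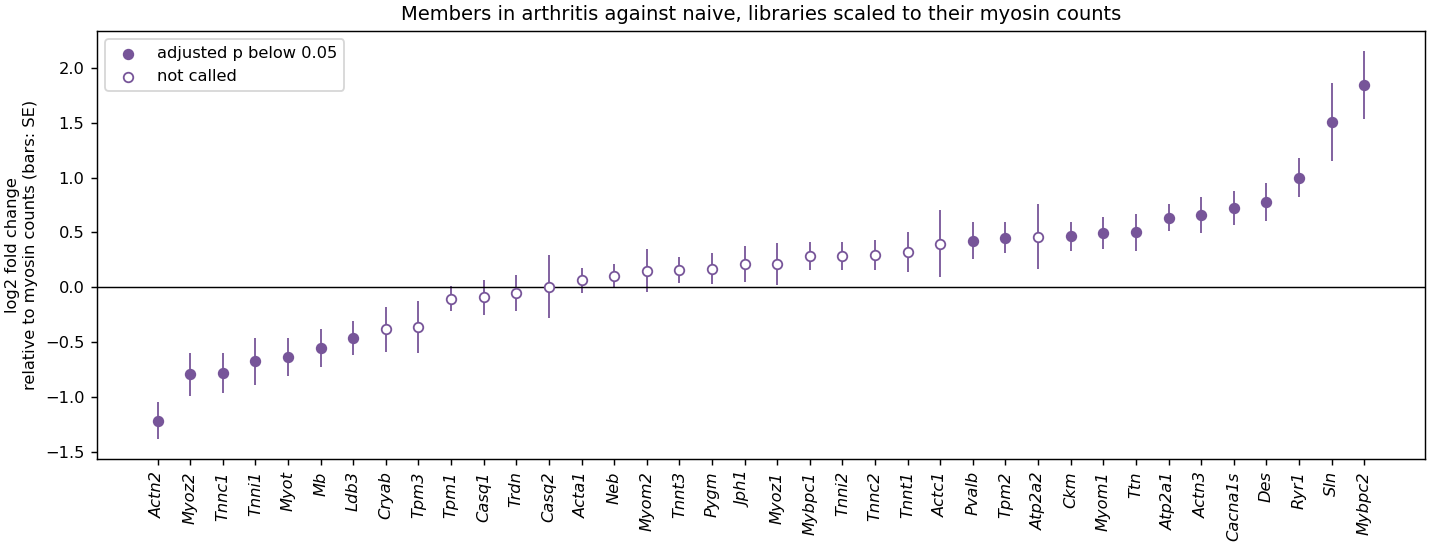
Log2 fold changes (points) with SE (bars) of the 38 genes in arthritis against naive, after scaling each library to its summed counts of 9 myosin and myosin kinase genes, ordered by value. Filled points passed an adjusted p of 0.05. The 7 filled points below 0 run from −1.21 (Actn2) to −0.46 (Ldb3) and the 12 above 0 from 0.43 (Pvalb) to 1.84 (Mybpc2).

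The next comparison asks what the agonist antibody changed in arthritic joints. Of the 38 genes, 5 rose and 0 fell against the control antibody (edgeR quasi-likelihood test, adjusted p below 0.05), while among all tested genes 1.59% were called higher and 1.7% lower. At an unadjusted p under 0.05, 14 were higher (10.6% of all tested genes) and 1 lower (13.8%), and DESeq2 called 11 higher (5.48% of all tested genes) and 1 lower (5.87%). The 5 were Actn2, Myoz2, Tnnc1, Tpm3 and Tnni1, all among the 10 that were lower in arthritis. Both comparisons share the 4 control mice, so that a low value in these mice enters both. The median was 0.46 over the 38 genes and −0.03 over all tested genes, and 36 of the 38 lay above 0, all but Mybpc2 and Ryr1.

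In anti-SIRPa mice, Actn2 stood at 2163, 2299.8, 1317 and 1339 CPM, above all 4 controls given earlier, and rose by 1.39 ± 0.32 (log2, SE; edgeR adjusted p = 0.0378). Myoz2 stood at 151, 146, 123 and 118 CPM and rose by 1.34 ± 0.27 (SE; edgeR adjusted p = 0.0305). Tnnc1 stood at 699.5, 722, 512 and 556 CPM and rose by 1.23 ± 0.28 (SE; edgeR adjusted p = 0.0375). For each of these Z-disc and calcium sensor genes the lowest treated mouse was above the highest control mouse, control 1. Tpm3 stood at 281, 246, 188 and 187 CPM and rose by 1.11 ± 0.20 (SE; edgeR adjusted p = 0.0247). Tnni1 stood at 309, 302, 259 and 250.02 CPM and rose by 0.89 ± 0.22 (SE; edgeR adjusted p = 0.0468). In Tnni1 the gap was small, since control 1 stood at 243 CPM. These 5 were the only genes among the 38 above the controls without overlap, as 5.18% of all tested genes were, and 0 were below without overlap, as 4.82% were.

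The other 5 genes that fell in arthritis were not called by edgeR in this comparison, while DESeq2 called Myot, Ldb3, Cryab and Atp2a2 higher. In anti-SIRPa mice Myot stood at 889, 983, 798 and 623 CPM (1.12 ± 0.35, SE; edgeR adjusted p = 0.0802) and Ldb3 at 959.5, 1058, 822 and 639.8 CPM (0.85 ± 0.27, SE). Cryab stood at 505, 672, 445 and 333 CPM, a change of 0.73 ± 0.23 (SE). In these Z-disc genes 1 mouse, anti-SIRPa 4, was lowest and lay within the range of the controls. Casq2 stood at 15.8, 19.0, 22.7 and 14.8 CPM (0.50 ± 0.21, SE) and Atp2a2 at 332, 332, 238 and 316 CPM (0.36 ± 0.13, SE), with overlap in both.

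Mb stood at 4605, 4578, 4803 and 3590.1 CPM in anti-SIRPa mice. It had a change of 1.13 ± 0.38 (SE; edgeR adjusted p = 0.101; called by DESeq2), and the overlap came from control 1. Mybpc2 stood at 188, 203, 421 and 139 CPM, a change of −0.93 ± 0.29 (SE; edgeR adjusted p = 0.0817; called by DESeq2), with anti-SIRPa 3 among the controls. Acta1, Ttn and Ryr1 had 0.42 ± 0.26, 0.11 ± 0.34 and −0.30 ± 0.25 (SE), none of them called by edgeR or DESeq2. By role, 3 of 12 thin filament genes rose (group median 0.53) and 2 of 8 Z-disc genes (0.79). EdgeR called 0 of the other 18, whose group medians lay between 0.24 and 0.52, while 5 of them were higher and 1 lower at an unadjusted p under 0.05 (24.4% of all tested genes had such a p) and DESeq2 called 2 higher and 1 lower. Of the slow-fibre list 4 of 7 rose (median 0.89) and of the fast-fibre list 0 of 9 (median 0.46; 1 higher and 1 lower at an unadjusted p under 0.05; 1 lower by DESeq2). That difference was not tested.

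The slow to fast ratios of the anti-SIRPa mice did not all lie on the same side. That of Tnnc1 to Tnnc2 was −3.201, −3.11, −3.62 and −3.12, above every control. That of Myoz2 to Myoz1 was −1.19, −1.24, −1.95 and −1.18, and here anti-SIRPa 3 lay among the controls. That of Tnni1 to Tnni2 was −3.51, −3.56, −3.91 and −3.47, which overlapped the controls and lay below every naive mouse. That of Tnnt1 to Tnnt3 was −2.59, −2.55, −2.49 and −2.46, below every mouse of both other groups.

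The count of 5 rested on single libraries. It became 23 without control 1, where 11.1% of all genes tested were called higher and 12% lower, 2 without naive 1, 2 or 3, 1 without anti-SIRPa 3, and 0 without control 2, control 3, control 4, anti-SIRPa 1 or anti-SIRPa 2, and none of the 5 genes was called in every one of the 12 fits. Over all genes tested, the calls in either direction also became fewer. They were 173 without naive 1 or 2, 232 without naive 3 and 144 without anti-SIRPa 3, against 548 in the main fit. They were 48 without control 2, 1 without control 3, 1 without control 4 and 0 without anti-SIRPa 1 or 2. Fitting the control and anti-SIRPa groups alone gave 0 of the 38 genes and 0 of all 15851 genes tested. Scaled to the myosin genes, 5 rose (Actn2 0.83, Myoz2 0.79, Mb 0.69, Tnnc1 0.68 and Myot 0.63) and 6 fell (Mybpc2 −1.67, Ryr1 −1.03, Des −0.62, Ttn −0.61, Cacna1s −0.55 and Atp2a1 −0.54), against 0.24% and 12.4% of all tested genes. EdgeR called 1 of 6 fibroblast markers lower, Col3a1. At an unadjusted p under 0.05, and likewise by DESeq2, 4 were lower and 1, Dcn, was higher. The 6 fibroblast markers summed to 8190 to 11416 CPM in anti-SIRPa mice. Myeloid markers, of which edgeR and DESeq2 called 0 of 8 and 2 were lower at an unadjusted p under 0.05, summed to 453 to 541 CPM. Of 4 adipocyte markers 2 rose, Adipoq and Plin1, and the 4 summed to 17.3 to 64.2 CPM in controls and 71.3 to 106 CPM in anti-SIRPa mice. Of 5 erythroid markers 1 rose, the globin gene Hbb-bs, and the 5 summed to 5.99 to 11.99 CPM in controls and 15.5 to 41.2 CPM in anti-SIRPa mice. Their part in the result was not tested. Of the 43 genes of the 3 further lists, 1 rose, Xirp1 (1.11 ± 0.27, SE; edgeR adjusted p = 0.0445), and that count became 31 without control 1 and 0 without any 1 of naive 1 to 3, control 2 to 4 or anti-SIRPa 1 to 3.

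The last comparison sets the treated arthritic mice beside naive mice. EdgeR called 0 of the 38 genes and 0 of all 16674 tested genes, or 0%. An unadjusted p under 0.05 was found for 3 of the 38, 2 lower and 1 higher, beside 1.42% and 2.63% of all tested genes, and DESeq2 called 0 of the 38 and 20 genes in all, 0.108% of the tested genes being higher and 0.012% lower. The median was −0.13 over the 38 genes and −0.01 over all tested genes, with 33 of the 38 below 0, but 17 without naive 4 and 19 without anti-SIRPa 4. The 3 genes were Tnni1 (−0.60 ± 0.22, SE), Cryab (−0.50 ± 0.23) and Sln (0.95 ± 0.39), each with an edgeR adjusted p of 1.00. Tnni1 ran from 250.02 to 309 CPM in treated mice and from 353 to 503 CPM in naive mice, so that the groups did not overlap. Actn2, with −0.57 ± 0.31 (SE), was the other gene below all naive mice, at 1317 to 2299.8 CPM against 2311 to 3394 CPM. Over all tested genes 1.85% were lower and 3.04% higher without overlap. A p that misses the threshold does not show that treated and naive joints were alike.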

How the data were processed

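Total RNA of 12 paw joints was made into strand-specific libraries and sequenced, per the labels. The deposited files hold raw counts of reads per gene that the authors did not normalize, and the submitters' processing notes name GRCm38. For the aligner, the counter and its strand setting, the sources used here give nothing, so that overlapping genes on opposite strands and near-identical copies are uncertain. All 12 sample files equal the series table, and 52489 of its 52636 identifiers have a symbol in GENCODE M21; the others held 0.0173% of counts. No pair of libraries of a group agreed within sampling noise (lowest chi-square per gene 8.95).

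Counts were filtered with filterByExpr by group, scaled by TMM and fitted with the robust quasi-likelihood model of edgeR 4.0.16 (R 4.3.3) over all 12 libraries with 1 coefficient per group (biological coefficient of variation 0.334). P-values were adjusted by Benjamini-Hochberg over 16674 genes, with a threshold of 0.05. CPM are TMM-scaled, while receptor gene levels and shares of counts are relative to unscaled totals. SE is of the log2 fold change, and ratios used CPM plus 0.5. The script was tested on simulated counts. Alternatives were other size factors, TMM without muscle genes, scaling to myosin genes, other filters, DESeq2 1.42.0, limma-voom (limma 3.58.1), fits of 2 groups, a replicate block and leaving out libraries. Genes named with values in every mouse were the called ones. Mb and Mybpc2, and Myod1, Tnnt2 and Myh6 in the closing section, were chosen after their values were seen. Of each further list up to 4 genes of smallest p were named. The members and lists were chosen with earlier results of these data known, and the libraries left out for skin or receptor reads were also known from them. Promoter sequences are those of RefSeq on GRCm38.p6. Proteins were not used here.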

Additional observations from a re-analysis of the deposited data

Results flagged for a closer look

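In 135 groups of 4 values (the CPM of each of the 38 genes, the ratios and the share of counts, in each group), 15 had 1 mouse whose distance from the nearest other mouse exceeded Dixon's 95% critical value as a part of the group's range. Chance flags about 1 in 20 groups. Of the 15, 6 were high values of naive 4. Neb stood at 37701 CPM there and at 23169 to 25473 CPM in the other naive mice. Tnni2 stood at 4059 CPM (others 2877 to 3006), Myom1 at 1607 CPM (others 1127 to 1146), Myoz2 at 203 CPM (others 135 to 144), Cacna1s at 1379 CPM (others 913 to 985) and Mb at 5704 CPM (others 4139 to 4217). Naive 4 was also 1 of the 2 libraries almost without epidermis markers. In anti-SIRPa 4, with the most epidermis counts, 6 values were low. Tnnc2 stood at 4849.6 CPM (others 6244 to 6436), Tpm2 at 4269 CPM (others 5638 to 5731), Myom1 at 817 CPM (others 1305 to 1403), Jph1 at 347 CPM (others 499 to 519) and Des at 2648 CPM (others 3642 to 3787). The 38 genes took 16.3% of its counts (others 24.5 to 25.9%). The part of skin in these values was not tested.

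The remaining 3 lay in other mice. Control 1 had Tnni1 at 243 CPM, against 115 to 127 CPM in the other controls. Anti-SIRPa 3 had Atp2a2 at 238 CPM (others 316 to 332) and a log2 ratio of Myoz2 to Myoz1 of −1.95 (others −1.24 to −1.18).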

How the results depend on the processing

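Counts of called genes moved with single libraries and with the test. In arthritis against naive, the 10 lower genes of the 38 became 16 with DESeq2, 6 in a fit of the 2 groups alone, 0 without controls 2 and 4 and 5 without naive 4 and anti-SIRPa 2, the libraries poorest in skin. Over all genes tested, edgeR called 212 lower in the fit of 2 groups, 0 without controls 2 and 4 and 100 without the skin-poor libraries. The range for the 38 genes over fits without 1 library was 6 to 29. For anti-SIRPa against control antibody the 5 became 11 with DESeq2 and 2 without a filter on low counts. They became 0 in a fit of 2 groups, 0 without controls 2 and 4 and 0 without the skin-poor libraries. In each of these fits with 0, edgeR called 0 of all genes tested. The range for the 5 over fits without 1 library was 0 to 23. Of the 43 genes of the further lists, the 14 lower in arthritis became 3 on the myosin scale, 8 without a filter, 3 with 2 groups, 0 without controls 2 and 4 and 1 without the skin-poor libraries (range 2 to 33 without 1 library). The 1 higher with anti-SIRPa became 2 on the myosin scale, 0 without a filter, 9 with DESeq2, 2 with limma-voom, and 0 with 2 groups, without controls 2 and 4 or without the skin-poor libraries (range 0 to 31 without 1 library). DESeq2 size factors, TMM without muscle genes and a stricter floor (1 CPM, reached in 4 libraries) kept all of these counts within 1.5 times. Against naive, anti-SIRPa gave 0 of the 38 genes in all fits, by edgeR, DESeq2 and limma-voom.

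Same-numbered mice were not treated as pairs in the main fit. The correlation of their deviations from the group means ran from −0.80 to 0.21, which cannot show whether the animals were paired. With the replicate number as a block, the counts for the 38 genes were 8 (arthritis) and 2 (anti-SIRPa against control). For the further lists they were 6 and 0. Over all genes tested, 363 were called lower in arthritis and 48 higher with anti-SIRPa in that fit.

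The sign of 23 genes changed in arthritis on the myosin scale, where the median of all genes rose to 0.95: Acta1 (0.063), Actc1 (0.40), Actn3 (0.66), Ttn (0.50), Neb (0.10), Tnnt1 (0.32), Tnnt3 (0.16), Tnnc2 (0.29), Tnni2 (0.28), Tpm2 (0.45), Mybpc1 (0.28), Myom1 (0.50), Myom2 (0.15), Myoz1 (0.22), Casq2 (0.0048), Atp2a1 (0.63), Atp2a2 (0.46), Cacna1s (0.72), Jph1 (0.21), Ckm (0.46), Des (0.77), Pvalb (0.43) and Pygm (0.17). Against the control antibody the sign of 21 did: Acta1 (−0.18), Actc1 (−0.48), Actn3 (−0.49), Ttn (−0.61), Neb (−0.14), Tnnt1 (−0.45), Tnnc2 (−0.16), Tpm2 (−0.41), Mybpc1 (−0.23), Myom1 (−0.37), Myom2 (−0.17), Casq2 (−0.16), Atp2a1 (−0.54), Atp2a2 (−0.40), Cacna1s (−0.55), Jph1 (−0.013), Ckm (−0.28), Des (−0.62), Pvalb (−0.28), Sln (−0.40) and Pygm (−0.095). Changes near 0 also crossed it when libraries were left out. In arthritis these were Ryr1 without control 1 (−0.020; range over single libraries left out −0.020 to 0.24) and Cacna1s without naive 4, control 2 or control 3 (range −0.38 to 0.059), without controls 2 and 4 (0.084) and without the skin-poor libraries (0.060). For anti-SIRPa against control they were Ttn without anti-SIRPa 1 or 2 (range −0.0080 to 0.37), Atp2a1 without control 2 (range −0.033 to 0.35) and without controls 2 and 4 (−0.060), Cacna1s without control 2, control 3 or anti-SIRPa 3 (range −0.062 to 0.36) and without controls 2 and 4 (−0.095), Des without control 2 (range −0.0066 to 0.22) and Sln without control 2 or anti-SIRPa 3 (range −0.075 to 0.45). For anti-SIRPa against naive, where most changes were near 0, 19 genes changed sign on the myosin scale, 16 without naive 4, 14 without anti-SIRPa 4, 12 without the skin-poor libraries and at most 3 under any other alternative. The cause was not tested. Depth limits the lowest genes: Sln had 23 to 172 counts per library and Actc1 41 to 166.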

Other observations

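Genes of regenerating muscle, which are active in satellite cells and newly formed fibres, had changes in both directions. Of 9 tested, edgeR called 1 lower in arthritis and 0 with anti-SIRPa against control (1 higher and 2 lower at an unadjusted p under 0.05), while DESeq2 called 1 higher (Myod1) and 2 lower (Myh3 and Myh8) in arthritis, and 1 higher (Myh3) and 2 lower (Myod1 and Myog) with anti-SIRPa. The gene called by edgeR was the embryonic myosin gene Myh3 (−1.48 ± 0.31, log2 ± SE; edgeR adjusted p = 0.0164), which stood at 207, 198, 173 and 311 CPM in naive mice and at 127, 47.9, 58.6 and 83.6 CPM in controls. The myogenic factor gene Myod1 stood at 16.7, 24.0, 23.6 and 31.4 CPM in naive mice, at 34.9, 34.9, 49.6 and 33.6 CPM in controls and at 22.2, 26.7, 30.5 and 18.1 CPM in anti-SIRPa mice. All controls were above all mice of both other groups, but edgeR called neither change (0.68 ± 0.21 with edgeR adjusted p = 0.0510 against naive, and −0.65 ± 0.21 with edgeR adjusted p = 0.0811 for anti-SIRPa against control). Myogenin (Myog) was highest in control 3, at 29.9 CPM, and between 5.21 and 14.3 CPM in the other 11 libraries.

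The heart-type troponin T gene Tnnt2, which is also active in immature skeletal muscle, stood at 22.3, 23.0, 30.02 and 33.6 CPM in naive mice, at 53.7, 34.4, 47.3 and 41.4 CPM in controls and at 33.9, 26.6, 49.8 and 19.9 CPM in anti-SIRPa mice. Controls lay above naive mice without overlap. Of the 9 heart markers 4 passed the filter, and edgeR called 0 of them in arthritis against naive (1 higher and 1 lower at an unadjusted p under 0.05, and 0 by DESeq2). The heart myosin Myh6, from 28.3 to 45.6 CPM in naive mice, stood at 36.9, 18.7, 16.9 and 18.3 CPM in controls.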
